A study of Saccharomyces cerevisiae with 16 samples.

Results

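The 36 aminoacyl-tRNA synthetase genes of budding yeast were followed in a ribosome profiling series of meiotic cells. They were chosen by name, 22 for the enzymes of the cytosol and 14 for those of mitochondria, out of 6679 genes in the deposited table. All 36 were found and all 36 passed the filter on low values used for the tests. Cells of the SK1 background, a strain that sporulates fast and synchronously, were collected 6 h or 3 h after transfer to sporulation medium. The reading frame of DBP1, which encodes a DEAD-box RNA helicase, had been removed without a marker by Cas9 (deletion), or was intact (WT). Cells of every group were treated with 100 µM cycloheximide, an elongation inhibitor, for 1 min before harvest. Each of the 4 groups (deletion at 6 h, WT at 6 h, deletion at 3 h and WT at 3 h) gave 2 footprint libraries, made of the 28 to 31 nt stretches of mRNA covered by ribosomes, and 2 mRNA libraries, made of 50 nt fragments. The labels do not say whether replicates were separate cultures or separate deletion clones, so the spread behind each p-value is that of these libraries alone and may be technical.

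Aminoacyl-tRNA synthetases attach each amino acid to its tRNAs, so every codon read by a ribosome depends on one of them. The cytosolic enzymes serve the translation of nuclear genes, and a separate set, also encoded in the nucleus, serves the few proteins made inside mitochondria. Some genes supply both compartments from alternative start sites, among them ALA1, GRS1, HTS1 and VAS1, counted here as cytosolic. When charged tRNA runs low, the kinase Gcn2 senses it and translation of the transcription activator Gcn4 goes up.

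DBP1 itself checked the labels: it had 0.578 and 0.449 RPKM of footprints in the deletion at 6 h, against 164 and 147 RPKM in WT, and 1.12 and 1.06 RPKM in the deletion at 3 h, against 417 and 429 RPKM in WT. RPKM, the unit of the deposited table, are reads scaled to gene length and library depth. Between 4578404 and 6965118 reads per footprint library and between 5639298 and 9138259 per mRNA library were recovered from it. The 8 markers of meiotic divisions and spore formation (such as NDT80 and SPS1) summed to 40413 to 51291 RPKM of footprints in the deletion and 38844 to 41359 RPKM in WT at 6 h, against 263 to 313 RPKM in the deletion and 173 to 190.1 RPKM in WT at 3 h. The 7 markers of meiotic prophase summed to 1540.3 to 2599 RPKM in the deletion and 1746 to 1949.9 RPKM in WT at 6 h, against 7601 to 8729.6 RPKM in the deletion and 7589 to 7640.5 RPKM in WT at 3 h. Among markers of other cells, 8 of dividing cells summed to 36.5 to 40.6 RPKM at 6 h, against 38.7 to 72.2 RPKM at 3 h, with 2 of 8 above 5 RPKM at 6 h. The 10 of haploid cells summed to 1701 to 1982 RPKM at 6 h, against 107 to 139 RPKM at 3 h, and STE18 alone made up 1545 to 1813 RPKM of the sum at 6 h. No list had a marker at 0 in every library of a group, and the part of these cells in the results below was not tested.

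One mRNA library went against its label. In the library labelled deletion 3 h replicate 2, 34 of the 36 synthetase genes lay nearer to the deletion mean at 6 h than to the other deletion library at 3 h, the exceptions being DPS1 and ILS1. Across 5720 genes, which are not independent replicates, its log2 values correlated at 0.991 with deletion 6 h replicate 2 and at 0.709 with deletion 3 h replicate 4. It was therefore left out of the mRNA and efficiency results, so that deletion 3 h mRNA was 1 library, assumed to vary like the other groups. Where keeping that library changes calls or their counts over time, this is said beside them.

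At 3 h the cytosolic enzymes were spread over a wide range of footprint levels. In WT at 3 h they ran between 5.17 RPKM for MES1 (methionine) and 214 RPKM for DPS1 (aspartate) in replicate 3, and between 3.32 and 212 RPKM, for the same genes, in replicate 4. By 6 h the order of the genes had turned over. TYS1, the tyrosine enzyme, was then first with 1223 and 1150.5 RPKM in the deletion and 1196 and 1192 RPKM in WT, and GRS2, the minor copy of the glycine enzyme, was last with 5.19 and 4.03 RPKM in the deletion and 4.62 and 5.78 RPKM in WT. The mitochondrial enzymes were lower and more even. In WT they ran between 1.48 and 21.0 RPKM at 6 h and between 7.99 and 27.3 RPKM at 3 h in replicate 3. The median cytosolic enzyme stood 8.12 and 9.85 times above the median mitochondrial one in WT at 6 h, against 4.39 and 4.64 times in WT at 3 h.

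**Figure D1:**
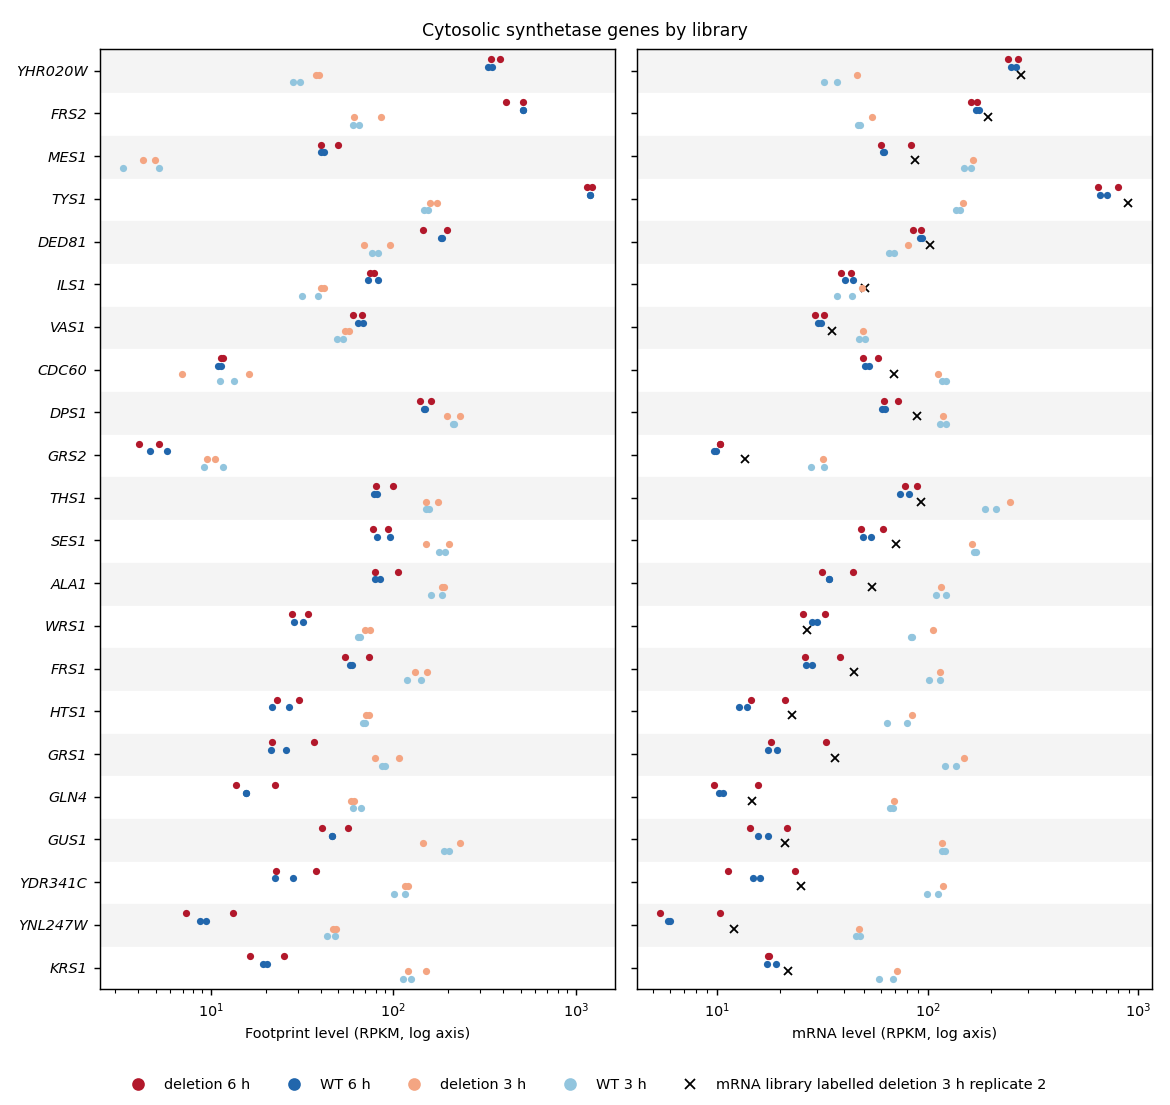
Footprint and mRNA levels (RPKM, log axis) of the 22 cytosolic synthetase genes in every library, each point 1 library; within a gene the rows run down in the order deletion 6 h, WT 6 h, deletion 3 h and WT 3 h, and the cross is the mRNA library that went against its label. TYS1, FRS2, YHR020W and MES1 have higher footprints in all libraries at 6 h than in any at 3 h, while MES1 mRNA is lower at 6 h in RPKM, though at 0.08 on the log2 scale with rescaled libraries.

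Footprints of 7 of the 22 cytosolic enzymes rose and of 14 fell in WT between 6 h and 3 h. Among all 5312 genes tested 20.1% were called higher and 63.3% lower, so the share that fell was near that of the background. Calls are from limma on log2(RPKM + 1), a linear model with moderated variances fitted over all genes, at a Benjamini-Hochberg adjusted p under 0.05, and changes on this scale understate those of low genes. RPKM are shares of a library: the median gene changed by -0.96 on the log2 scale in footprints and -1.38 in mRNA. With libraries rescaled by their median ratio, 8 cytosolic genes were called higher and 7 lower, beside 36.0% and 32.3% of all genes. Bulk libraries cannot tell fewer cells of a type from less RNA per cell.

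The rises were concentrated in the enzymes for 4 amino acids. YHR020W, the cytosolic proline enzyme, had 383 and 343 RPKM of footprints in the deletion and 332 and 349 RPKM in WT at 6 h, against 37.9 and 39.4 RPKM in the deletion and 30.7 and 28.3 RPKM in WT at 3 h. Every library at 6 h was far above every library at 3 h, in both strains. Its log2 change in WT was 3.48 (SE 0.13, adjusted p = 1.84e-07), the highest of the 36. TYS1 (YGR185C) had 1223 and 1150.5 RPKM in the deletion and 1196 and 1192 RPKM in WT at 6 h, against 159 and 173 RPKM in the deletion and 155 and 147 RPKM in WT at 3 h. The times did not overlap, and the 4 libraries at 6 h were close to each other. TYS1 rose by 2.98 in WT (SE 0.12, adjusted p = 3.64e-07). FRS2 (YFL022C), the alpha subunit of the phenylalanine enzyme, had 417 and 514 RPKM in the deletion and 517 and 515 RPKM in WT at 6 h, against 61.0 and 86.1 RPKM in the deletion and 64.7 and 60.1 RPKM in WT at 3 h. It rose by 3.03 in WT (SE 0.18, adjusted p = 3.58e-06), again with no overlap between the times. MES1 (YGR264C) had 50.1 and 40.3 RPKM in the deletion and 41.7 and 40.2 RPKM in WT at 6 h, against 4.97 and 4.23 RPKM in the deletion and 5.17 and 3.32 RPKM in WT at 3 h. Its libraries at 3 h held only 45 to 76 reads, all well below those at 6 h, and it rose by 3.02 in WT (SE 0.22, adjusted p = 8.59e-06).

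Smaller rises were seen in DED81 (asparagine) and ILS1 (isoleucine). DED81 had 145 and 198 RPKM of footprints in the deletion and 185 and 183 RPKM in WT at 6 h, against 69.2 and 96.0 RPKM in the deletion and 82.2 and 76.9 RPKM in WT at 3 h. All libraries at 6 h were above all at 3 h, and the change in WT was 1.20 (SE 0.20, adjusted p = 5.78e-04). DED81 and YHR020W are adjacent in the order of RefSeq genes and lie on opposite strands. ILS1 had 78.9 and 74.2 RPKM in the deletion and 73.1 and 82.4 RPKM in WT at 6 h, against 40.2 and 41.7 RPKM in the deletion and 38.6 and 31.5 RPKM in WT at 3 h. It was higher at 6 h in every library and rose by 1.13 in WT (SE 0.15, adjusted p = 1.55e-04). VAS1, for valine, was called at 0.37 in WT (SE 0.13, adjusted p = 0.0259), a call lost with a replicate block and without WT replicate 3 or 4. All 7 of these rises were called in both scalings.

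Of the remaining 15 cytosolic enzymes 14 fell, most steeply KRS1 for lysine. KRS1 (YDR037W) had 25.3 and 16.3 RPKM of footprints in the deletion and 19.3 and 20.2 RPKM in WT at 6 h, against 120.1 and 151 RPKM in the deletion and 125 and 113 RPKM in WT at 3 h. All libraries at 6 h were several times below all at 3 h, and KRS1 fell by 2.53 in WT (SE 0.21, adjusted p = 1.77e-05). YNL247W, for cysteine, had 13.2 and 7.35 RPKM in the deletion and 8.67 and 9.36 RPKM in WT at 6 h, against 46.6 and 48.4 RPKM in the deletion and 48.1 and 43.4 RPKM in WT at 3 h. It fell by 2.22 in WT (SE 0.24, adjusted p = 5.65e-05), without overlap. GUS1, for glutamate, had 56.5 and 40.8 RPKM in the deletion and 45.9 and 46.2 RPKM in WT at 6 h, against 145 and 231 RPKM in the deletion and 189 and 202 RPKM in WT at 3 h. The times were again apart, with a fall of 2.06 in WT (SE 0.23, adjusted p = 7.45e-05).

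YDR341C for arginine fell by 2.06 (SE 0.23), GLN4 for glutamine by 1.96 (SE 0.21), GRS1 for glycine by 1.87 (SE 0.25) and HTS1 for histidine by 1.49 (SE 0.17) in WT footprints. The adjusted p of these 4 lay between 6.05e-05 and 1.96e-04. With KRS1, YNL247W and GUS1 they made up the 7 cytosolic genes called lower in both scalings. A further group fell about as much as the median gene: FRS1 by 1.14, WRS1 for tryptophan by 1.07, ALA1 for alanine by 1.07, SES1 for serine by 1.06 and GRS2 by 0.88. None of these 5 was called with rescaled libraries, and GRS2 not without WT replicate 3 or 4 either. THS1 for threonine fell by 0.94 and DPS1 by 0.52, but with rescaled libraries both were positive, at 0.03 and 0.45, DPS1 then being called higher (adjusted p = 0.0159). The call of DPS1 was also lost without WT replicate 3 or 4. CDC60, for leucine, was the cytosolic gene not called, at -0.13 (adjusted p = 0.71), and at 0.76 with rescaled libraries.

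The phenylalanine enzyme is a complex of FRS1, its beta subunit, and FRS2, its alpha subunit, and their footprints went opposite ways. FRS1 had 73.5 and 54.5 RPKM in the deletion and 57.6 and 59.1 RPKM in WT at 6 h, against 132 and 153 RPKM in the deletion and 142 and 119 RPKM in WT at 3 h. It was lower at 6 h in every library, where FRS2 was higher. The ratio of FRS1 to FRS2 footprints was 0.176 and 0.106 in the deletion and 0.111 and 0.115 in WT at 6 h, against 2.16 and 1.77 in the deletion and 2.19 and 1.98 in WT at 3 h. The ratio of their mRNA moved the same way, 0.157 and 0.162 in WT at 6 h and 2.11 and 2.44 in WT at 3 h. FRS1 thus had the higher level per length at 3 h and FRS2 at 6 h, in footprints as in mRNA.

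GRS1 and GRS2 arose by genome duplication, and reads may be shared between them, so the split is uncertain. GRS1 had 37.0 and 21.6 RPKM of footprints in the deletion and 21.5 and 25.7 RPKM in WT at 6 h, against 79.8 and 107 RPKM in the deletion and 87.2 and 90.0 RPKM in WT at 3 h. GRS2 had 5.19 and 4.03 RPKM in the deletion and 4.62 and 5.78 RPKM in WT at 6 h, against 9.51 and 10.5 RPKM in the deletion and 9.12 and 11.7 RPKM in WT at 3 h. Both were lower at 6 h in every library, and GRS1 stayed above GRS2 throughout. Their ratio was 7.12 and 5.37 in the deletion and 4.64 and 4.45 in WT at 6 h, against 8.39 and 10.2 in the deletion and 9.56 and 7.68 in WT at 3 h.

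With the rise of a few genes, the makeup of the whole set changed. TYS1, FRS2 and YHR020W together gave 64.0% and 66.7% of the summed cytosolic synthetase footprints (RPKM) in the deletion and 67.0% and 65.9% in WT at 6 h, against 13.1% and 12.7% in the deletion and 11.8% and 11.9% in WT at 3 h. The sum over all 22 was 3165 and 3009 RPKM in the deletion and 3054 and 3119.6 RPKM in WT at 6 h, against 1966 and 2345 RPKM in the deletion and 2110.1 and 1983 RPKM in WT at 3 h. Without those 3 genes the order of the times turned round: the sum was 1141 and 1001 RPKM in the deletion and 1009 and 1064 RPKM in WT at 6 h, against 1707 and 2046 RPKM in the deletion and 1860.2 and 1748 RPKM in WT at 3 h. The rises and falls were found in both structural classes of synthetases. In WT, 4 of 10 cytosolic class I genes rose and 5 fell, and 3 of 12 class II genes rose and 9 fell. Among all genes 20.1% were called higher and 63.3% lower in that fit. Counts by class with rescaled libraries are not given here, and a difference between the classes was not tested.

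**Figure D2:**
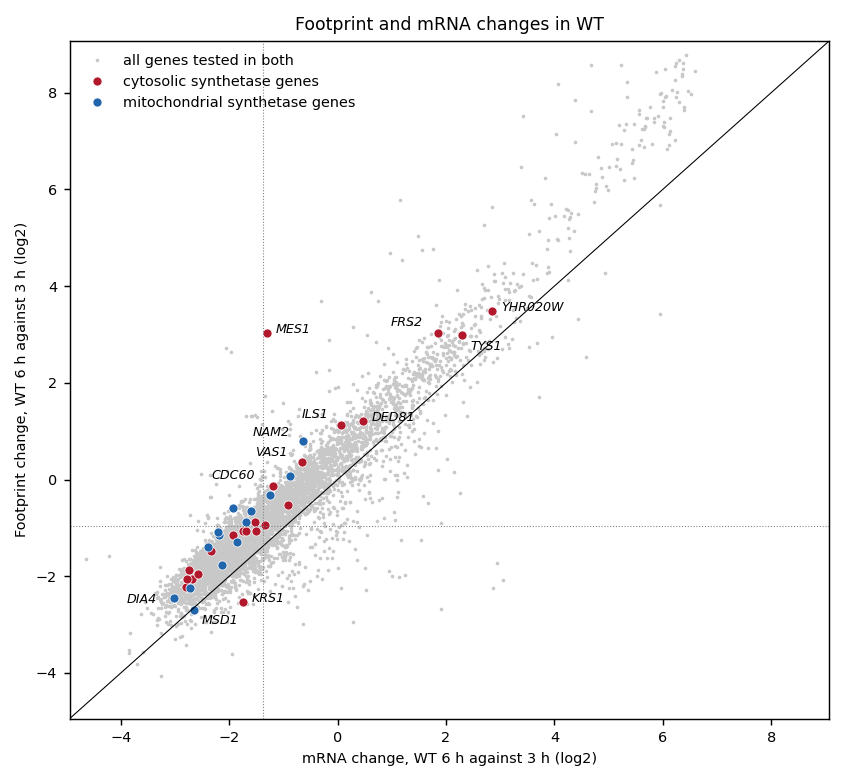
Change of each synthetase gene in WT at 6 h against 3 h on the log2(RPKM + 1) scale, mRNA on the x axis and footprints on the y axis, cytosolic genes in red and mitochondrial in blue over all tested genes in grey, with the diagonal of equal change and dotted lines at the median gene. MES1 lies apart, with footprints up by 3.02 and mRNA at -1.31 (0.08 with rescaled libraries).

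Footprints of 10 of the 14 mitochondrial enzymes fell and of 1 rose in WT at 6 h against 3 h, beside 63.3% lower and 20.1% higher among all genes. With rescaled libraries 4 were called lower and 3 higher, beside 32.3% and 36.0%. MSD1, for aspartate, had 2.16 and 2.31 RPKM of footprints in the deletion and 1.48 and 2.03 RPKM in WT at 6 h, against 11.3 and 18.3 RPKM in the deletion and 17.0 and 16.6 RPKM in WT at 3 h. Its libraries at 6 h, of 15 to 24 reads, were all below those at 3 h, and it fell by 2.70 in WT (SE 0.26, adjusted p = 3.58e-05). DIA4, a probable mitochondrial serine enzyme, had 4.58 and 5.03 RPKM in the deletion and 4.72 and 3.04 RPKM in WT at 6 h, against 19.8 and 24.5 RPKM in the deletion and 24.6 and 25.8 RPKM in WT at 3 h. It fell by 2.44 in WT (SE 0.22, adjusted p = 2.51e-05), with no overlap. AIM10 (YER087W), similar to proline enzymes, had 5.69 and 3.97 RPKM in the deletion and 4.41 and 2.85 RPKM in WT at 6 h, against 19.9 and 23.8 RPKM in the deletion and 21.2 and 20.3 RPKM in WT at 3 h. AIM10 fell by 2.25 in WT (SE 0.24, adjusted p = 5.62e-05), while the cytosolic proline enzyme rose. MST1, for threonine, fell by 1.77 in WT (SE 0.20, adjusted p = 6.60e-05). These 4 were the mitochondrial genes called lower in both scalings.

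The other falls in WT footprints were of MSM1 for methionine (1.40), MSE1 for glutamate (1.28), MSK1 for lysine (1.15) and MSF1 for phenylalanine (1.08), none of which was called with rescaled libraries. MSY1 for tyrosine fell by 0.88 and MSR1 for arginine by 0.59, and both turned positive but uncalled with rescaled libraries, at 0.01 and 0.28. The calls of MSY1 and MSR1 were lost without WT replicate 3 or 4 as well, and that of MSK1 without WT replicate 3. NAM2, the leucine enzyme that also takes part in splicing of mitochondrial introns, was the one that rose. It had 13.0 and 17.6 RPKM in the deletion and 17.8 and 20.5 RPKM in WT at 6 h, against 8.09 and 7.43 RPKM in the deletion and 11.6 and 9.62 RPKM in WT at 3 h. The times did not overlap, and NAM2 rose by 0.80 in WT (SE 0.20, adjusted p = 0.00629). That call was lost without WT replicate 4, and the change was then still positive. ISM1 for isoleucine (-0.65), MSW1 for tryptophan (-0.33) and SLM5 for asparagine (0.07) were not called. ISM1 (adjusted p = 0.0563) was close to the threshold and was called lower in 6 of 10 alternatives, among them limma-voom, the replicate block and the fits without either deletion replicate. With rescaled libraries ISM1 was at 0.21 and MSW1 at 0.60, and SLM5 at 0.99, MSW1 and SLM5 then being called higher.

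**Figure D3:**
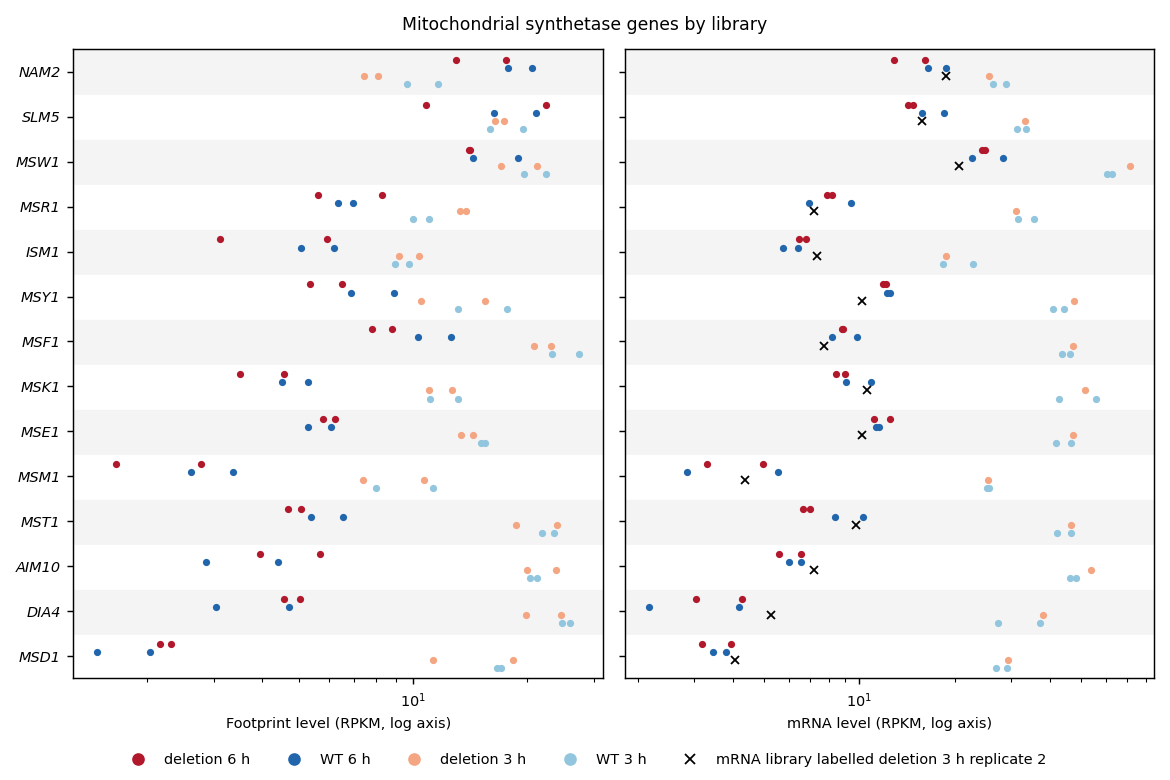
Footprint and mRNA levels (RPKM, log axis) of the 14 mitochondrial synthetase genes in every library, each point 1 library, drawn in the order deletion 6 h, WT 6 h, deletion 3 h and WT 3 h from top to bottom, with a cross for the mRNA library that went against its label. All are lower in mRNA RPKM at 6 h in WT, where NAM2, SLM5 and MSW1 turn positive with rescaled libraries, and NAM2 footprints are higher.

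For 14 amino acids a cytosolic and a separate mitochondrial enzyme can be set side by side, giving 15 pairs because FRS1 and FRS2 both stand against MSF1. In footprints the mean ratio of mitochondrial to cytosolic level was lower at 6 h than at 3 h in 9 of 15 pairs in WT and in 10 of 15 in the deletion. For proline, AIM10 over YHR020W was 0.0132 ± 0.0023 in the deletion and 0.0107 ± 0.00361 in WT at 6 h, against 0.565 ± 0.0549 in the deletion and 0.703 ± 0.0178 in WT at 3 h (SD, n = 2 each). For methionine, MSM1 over MES1 was 0.0732 ± 0.0152 in WT at 6 h, against 2.47 ± 1.31 in WT at 3 h (SD, n = 2 each), so that the mitochondrial gene had the more footprints per length at 3 h. In mRNA the same ratio was 0.068 ± 0.0308 in WT at 6 h, against 0.165 ± 0.012 in WT at 3 h (SD, n = 2 each). Leucine and lysine went the other way. NAM2 over CDC60 was 1.73 ± 0.212 in WT at 6 h, against 0.863 ± 0.00961 in WT at 3 h, and MSK1 over KRS1 was 0.249 ± 0.0201, against 0.102 ± 0.00397 (SD, n = 2 each). These ratios are descriptions with no test.

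In WT mRNA at 6 h against 3 h, 4 of 22 cytosolic genes rose, 17 fell and all 14 mitochondrial genes fell. Among all 5720 genes 16.4% were called higher and 72.9% lower. With rescaled libraries VAS1, DPS1, CDC60, MES1 and THS1 among the cytosolic falls turned positive, as did NAM2, SLM5 and MSW1 among the mitochondrial ones. YHR020W mRNA was 262 and 249.9 RPKM in WT at 6 h, against 32.4 and 37.1 RPKM in WT at 3 h. The times were far apart, and it rose by 2.85 (SE 0.12, adjusted p = 4.89e-06). TYS1 mRNA was 655 and 711 RPKM in WT at 6 h, against 142 and 136 RPKM in WT at 3 h, a rise of 2.29 without overlap. FRS2 mRNA was 169 and 175 RPKM in WT at 6 h, against 47.6 and 46.7 RPKM in WT at 3 h, a rise of 1.84 without overlap. DED81, called at 0.46, lost its call without WT replicate 3 or 4 and with the library that went against its label. The change was -2.77 for GUS1, -2.75 for GRS1 and -1.53 for GRS2. Among the mitochondrial genes it was -2.73 for AIM10, -2.65 for MSD1, -2.20 for MSF1 and -2.13 for MST1. The calls of NAM2, VAS1, SLM5, MSW1, MSY1 and WRS1, all lower, were also lost with the library that went against its label. The calls of NAM2 and VAS1 were lost as well without WT replicate 3 or 4, and that of SLM5 without WT replicate 3. With rescaled libraries 7 cytosolic genes were called higher and 9 lower, and 2 mitochondrial genes higher and 10 lower, beside 38.1% and 35.5% of all genes.

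Translation efficiency is used here for footprints over mRNA, both per length, and its change for the footprint change minus the mRNA change in 1 model of 15 libraries. In WT at 6 h against 3 h it rose for 9 of 22 cytosolic genes and fell for 1, and rose for 7 of 14 mitochondrial genes and fell for 0. Among 5291 genes 30.2% were called higher and 2.48% lower. The median gene rose by 0.50 on this scale, and with rescaled libraries 1 cytosolic gene was called higher, 1 lower and 0 mitochondrial genes either way, beside 2.14% and 3.25% of all genes. The larger count also depended on the libraries fitted. Without WT replicate 3 or 4, or with the library that went against its label, 1 cytosolic gene and 0 mitochondrial genes were called higher. Without deletion replicate 2 or 4 there were 21 cytosolic genes. The shares of all genes called in these fits are not given here, so the counts do not single out the synthetases.

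MES1 was the gene called higher throughout. Its footprints rose while its mRNA fell in RPKM. MES1 mRNA was 83.6 and 60.2 RPKM in the deletion and 62.1 and 61.7 RPKM in WT at 6 h, against 165 RPKM in the deletion and 148 and 161 RPKM in WT at 3 h. Its mRNA was lower at 6 h in every library that entered the fit, a fall of 1.31 in WT (SE 0.17, adjusted p = 1.69e-04), but with rescaled libraries that change was 0.08 and not called. Its ratio of footprints to mRNA was 0.60 and 0.67 in the deletion and 0.671 and 0.652 in WT at 6 h, against 0.0256 in deletion replicate 4 and 0.0349 and 0.0206 in WT at 3 h. In WT at 3 h this was the 15th lowest mean ratio of 5291 genes, and at 6 h it ranked 1112 from the lowest. The efficiency of MES1 rose by 4.33 in WT (SE 0.28, adjusted p = 6.50e-06), the 4th highest change of the 5291, and by 3.79 with rescaled libraries. It was called in all 12 alternatives, with values between 3.58 and 4.65, and in the deletion it rose by 4.25 (SE 0.31, adjusted p = 2.66e-05).

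**Figure D4:**
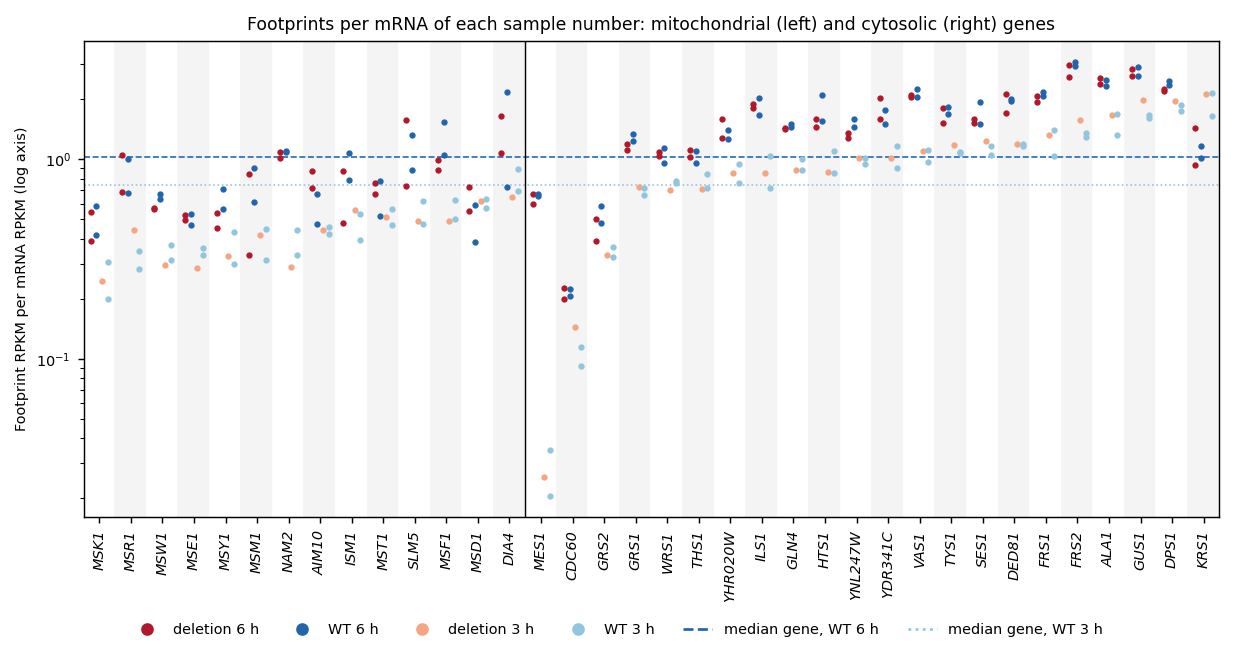
Footprints over mRNA (log axis) for each synthetase gene and sample number, mitochondrial genes on the left and cytosolic on the right, with lines at the median gene of WT at 6 h and 3 h. MES1 stands far below the other cytosolic genes at 3 h in WT (ratios of 0.0349 and 0.0206) and near 0.66 at 6 h, while CDC60 is low at both times.

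CDC60 had a low ratio at both times. It was 0.20 and 0.227 in the deletion and 0.225 and 0.206 in WT at 6 h, against 0.145 in deletion replicate 4 and 0.115 and 0.0921 in WT at 3 h. All libraries at 6 h were above those at 3 h, but its change of 1.06 in WT was not called (adjusted p = 0.0529). It was called in 6 of 12 alternatives, among them limma-voom, pairing per sample number and the fits without either deletion replicate. It ranked 66 from the lowest at 3 h and 113 at 6 h in WT. Its mRNA was among the more abundant of the cytosolic set at 3 h, at 117 and 122 RPKM in WT, against which footprints were 13.4 and 11.2 RPKM.

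KRS1 was the one member called lower. Its ratio was 1.43 and 0.934 in the deletion and 1.02 and 1.17 in WT at 6 h, against 2.12 in deletion replicate 4 and 2.14 and 1.65 in WT at 3 h. All libraries at 6 h were below those at 3 h. Its efficiency changed by -0.78 in WT (SE 0.27, adjusted p = 0.0456) and by -1.20 with rescaled libraries (adjusted p = 0.0143). The call was lost without WT replicate 3 or 4, without the filter on low values and with the library that went against its label. Further rises in efficiency in WT were 1.43 for NAM2, 1.34 for MSR1, 1.19 for FRS2, 1.12 for MSF1, 1.07 for ILS1, 1.02 for VAS1 and 0.92 for MSW1, none called with rescaled libraries. GRS1 was at 0.88 and GRS2 at 0.65, neither called. The median mitochondrial enzyme had a low ratio at both times, 0.845 and 0.623 in WT at 6 h, against 0.45 and 0.406 in WT at 3 h. This did not hold for every member. By mean ratio in WT at 6 h, DIA4 was at percentile 72.5 of the tested genes, MSF1 at 65.2, SLM5 at 55.5 and NAM2 at 54.5. DIA4 was at 55.3 in WT at 3 h. The cytosolic medians were 1.51 and 1.72 at 6 h, against 1.09 and 0.928 at 3 h, and those of all genes 1.02 and 1.03 at 6 h, against 0.767 and 0.718 at 3 h, in WT.

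The deletion went through the times in a like manner, judged by its own libraries. Between 6 h and 3 h footprints of 6 cytosolic genes rose and 14 fell, and 1 mitochondrial gene rose and 11 fell, beside 19.3% higher and 65.1% lower among all genes. YHR020W rose by 3.20 (SE 0.13), MES1 by 3.04 (SE 0.22), TYS1 by 2.83 (SE 0.12) and FRS2 by 2.66 (SE 0.18), at adjusted p between 3.31e-07 and 8.61e-06. In mRNA 3 cytosolic genes rose, 17 fell and all 14 mitochondrial genes fell, beside 14.8% higher and 71.9% lower. The rises were YHR020W (2.44), TYS1 (2.28) and FRS2 (1.59). In efficiency 7 cytosolic and 5 mitochondrial genes rose and 0 fell, beside 17.2% higher and 1.80% lower. With the library that went against its label kept, no member was called in mRNA, and 1 gene, MES1, was still called higher in efficiency. The call of NAM2, the mitochondrial gene whose footprints rose, was lost without deletion replicate 4, as was that of GRS2. Without WT replicate 3 or 4 the efficiency counts were 1 cytosolic and 0 mitochondrial genes higher. Without deletion replicate 2 there were 12 cytosolic genes higher and 1 lower. The shares of all genes called in these fits are not given here. With rescaled libraries the cytosolic split was 9 higher and 7 lower in footprints (34.8% and 31.3% of all genes), 7 and 8 in mRNA (34.6% and 30.4%) and 1 and 1 in efficiency (2.31% and 2.32%). The mitochondrial split was then 2 higher and 5 lower in footprints, 0 and 9 in mRNA and 0 and 0 in efficiency.

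Between the deletion and WT, limma called none of the 36 genes at either time. Footprints at 3 h ranged from a change of -0.41 for NAM2 to 0.38 for YHR020W, beside 0.0377% of all genes called. YHR020W had 37.9 and 39.4 RPKM in the deletion, against 30.7 and 28.3 RPKM in WT, so the strains did not overlap, but its p of 0.016 in limma did not survive adjustment over all genes. At 6 h, where 0.0565% of genes were called, the range ran from -0.41 for MSF1 to 0.34 for AIM10. Averaged over the times, where 0.0377% were called, NAM2 was lowest at -0.36 and YHR020W highest at 0.24, with GRS1 at 0.16 and GRS2 at -0.10. An unadjusted p under 0.05 in limma was seen for 1 of 36 genes at 3 h and 0 at 6 h, and for 3 in the average (YHR020W, NAM2 and MSF1). limma-voom on recovered reads called 0 of 36 in each of these comparisons as well. The average change had a 95% interval within 1 of 0 on the log2 scale for all 36 genes, in footprints, mRNA and efficiency.

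The following ranges are over the 4 cytosolic and 4 mitochondrial genes of smallest p with GRS1 and GRS2. In mRNA the differences between the deletion and WT at 3 h ran from 0.08 for GRS2 to 0.40 for YHR020W, where the lowest of all 36 was -0.12, beside 0.0175% of genes called, and at 6 h from -0.39 for MST1 to 0.40 for GRS1, beside 0.0350%. Averaged, where 0.0175% were called, they ran from -0.18 for NAM2 to 0.31 for HTS1, with GRS1 also at 0.31 and GRS2 at 0.07. In efficiency they ran from -0.40 for MSY1 to 0.44 for MSR1 at 3 h (the lowest of all 36 being -0.43, with 0.0189% of genes called), from -0.42 for ISM1 to 0.39 for AIM10 at 6 h (0.0189%) and from -0.36 for MSY1 to 0.24 for MSR1 averaged (0.0378%), with GRS1 at -0.14 and GRS2 at -0.17. The effect of the deletion did not pass the threshold for a difference between 6 h and 3 h in any of the 36, nor in any gene (0% in footprints, 0% in mRNA and 0% in efficiency). That difference ran from -0.37 for FRS2 to 0.45 for DIA4 in footprints, from -0.46 for MST1 to 0.20 for GRS1 in mRNA (0.28 for the highest of all 36) and from -0.60 for ISM1 to 0.54 for MSD1 in efficiency.

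**Figure D5:**
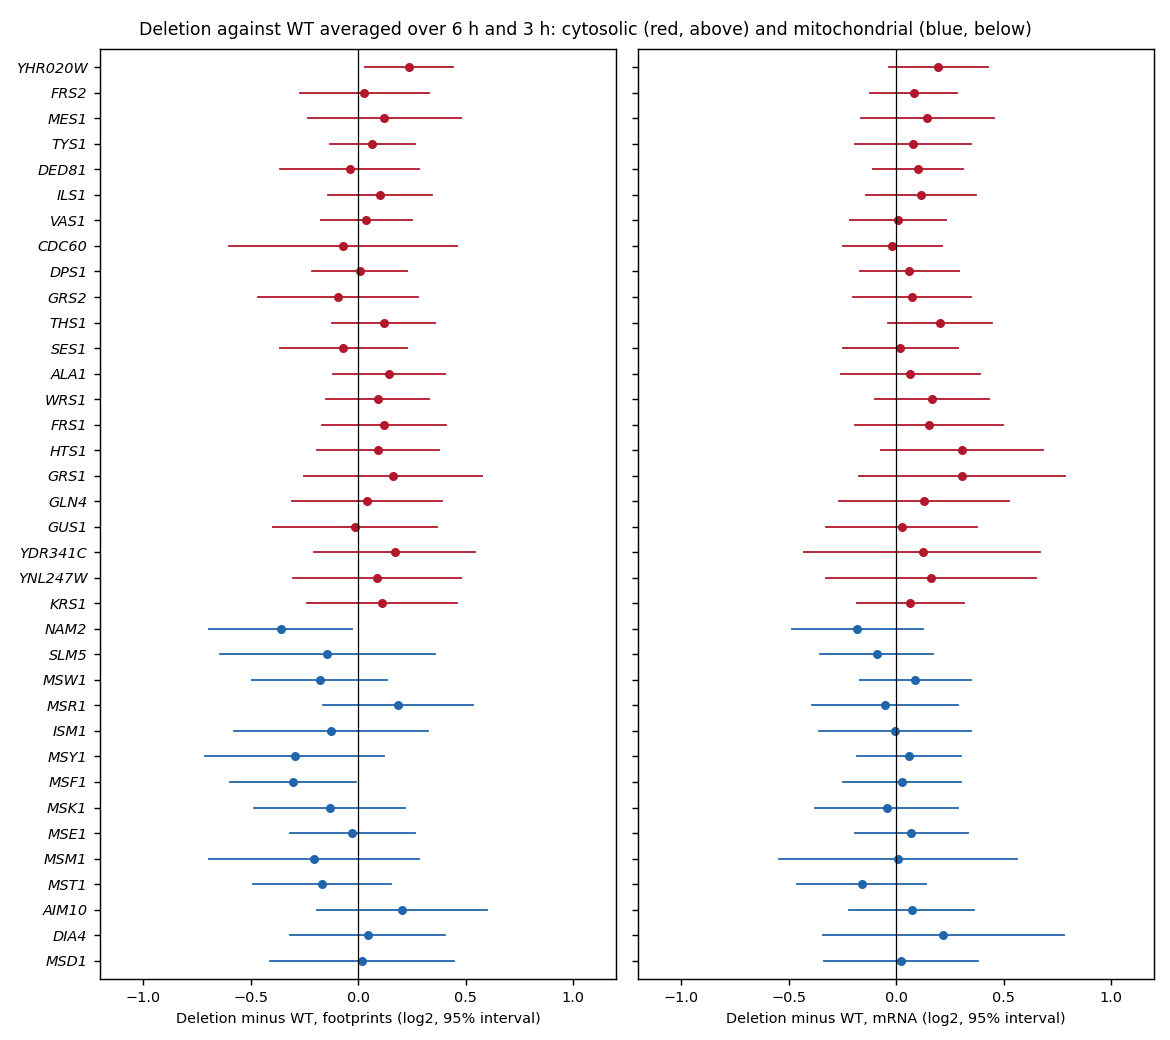
Deletion minus WT on the log2(RPKM + 1) scale for each synthetase gene, averaged over 6 h and 3 h, with 95% intervals, in footprints (left) and mRNA (right). In footprints 17 of 22 cytosolic genes lie above 0 and 4 of 14 mitochondrial ones do, and no gene was called. These counts were not tested, and the share of all genes above 0 is not given.

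Averaged footprint changes were positive for 17 of 22 cytosolic and 4 of 14 mitochondrial genes. At 3 h alone, changes were positive for 16 of 22 and 3 of 14, with the same numbers above the median of all genes (0.027). The share of all genes above 0 is not given here, and these counts were not tested. Among the 4 libraries at 6 h, 1 stood out. At 6 h deletion replicate 2 had the highest footprints of the 4 libraries in 16 of 22 cytosolic genes (72.7%), against 37.7% of all genes tested, and the lowest in 8 of 14 mitochondrial genes (57.1%), against 36.3% of all genes. In mRNA it was highest in 15 of 22 cytosolic genes (68.2%), against 44.9% of all genes, and lowest in 4 of 14 mitochondrial genes (28.6%), against 27.7%. Its meiotic prophase markers were also the highest of the 4, at 2599 RPKM of footprints. So was the sum of its markers of meiotic divisions, at 51291 RPKM. In that sum SPS4 had 24202 RPKM, against 10956 RPKM in the other deletion library and 9923 and 11885 RPKM in WT at 6 h. The part of these differences in the counts above was not tested. For MES1, the strain difference in footprints averaged 0.12 (95% interval -0.23 to 0.48), and for TYS1 0.07 (95% interval -0.13 to 0.26).

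Other genes of tRNA charging and its sensing were a mixed group. Of 12 such genes, footprints of 2 rose and 8 fell in WT at 6 h against 3 h, beside 20.1% and 63.3% of all genes. With rescaled libraries 4 were called higher and 4 lower, beside 36.0% and 32.3%. ARC1, the cofactor that binds the methionine and glutamate enzymes, had 166 and 149.7 RPKM in the deletion and 149 and 151 RPKM in WT at 6 h, against 397 and 437 RPKM in the deletion and 405 and 391 RPKM in WT at 3 h. It was lower at 6 h throughout and fell by 1.40 in WT, as GUS1 did and MES1 did not. CCA1, which adds the 3′ end of tRNAs, rose by 1.87 and TUF1, the mitochondrial elongation factor that carries charged tRNA, by 1.35. GTF1, a subunit of the amidotransferase that makes mitochondrial glutaminyl-tRNA, fell by 2.23, and FMT1, which formylates the mitochondrial initiator, by 1.90. The other subunits of the amidotransferase fell less or not at all, with PET112 at -0.71 and HER2 at 0.07. With rescaled libraries PET112 was at 0.215 and HER2 at 0.995. GCN4 mRNA was 408 and 417 RPKM in WT at 6 h, against 2516 and 2636 RPKM in WT at 3 h, with footprints on its reading frame of 6.01 and 1.65 RPKM, against 8.89 and 13.0 RPKM. Its mRNA was lower at 6 h and its footprints were few at both times. Beside these, cytosolic ribosomal protein genes had a median footprint change of -1.31 (2 of 134 rose, 111 fell) and mitochondrial ones of -0.42 (19 of 67 rose, 32 fell), against -1.0 for the cytosolic and -1.11 for the mitochondrial synthetases.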

How the data were processed

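The deposited values are the authors' RPKM of 6679 genes in 16 columns, 1 a library. Tools listed per the submitters' processing notes, without their roles, are Bowtie2, CASAVA and bcl2fastq 2.17. Which build, counter and strand setting were used is not given in the sources used here. Overlapping genes and duplicated genes (GRS1 and GRS2, TEF1 and TEF2, ribosomal protein paralogues) may share reads, to an extent that was not measured. RefSeq's R64 gene list, used for names and neighbours, matched 5994 of the IDs.

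Genes averaging 5 RPKM or more in the libraries fitted entered limma 3.58.1 (R 4.3.3) as log2(RPKM + 1), with eBayes and a trend (two-sided, Benjamini-Hochberg over all genes, threshold 0.05), with means of the groups and no block. Efficiency was the footprint contrast minus the mRNA contrast. The mRNA library labelled deletion 3 h replicate 2 was left out, leaving 7 mRNA libraries. The RPKM steps gave whole reads for 6679 of 6679 genes in both kinds of library, any genes without reads included. The tolerance was 0.02 of a read, and wider in proportion to the count for genes with very many reads. Replicates differed by more than sampling noise (mean chi-square at least 3.85, where sampling alone gives about 1). Steps were tested on simulated data. Results were recomputed with a pseudocount of 5 RPKM, without the filter, with rescaling by the median ratio, without the trend, with a replicate block, limma-voom on the recovered reads, efficiency paired per sample number, keeping that mRNA library and leaving out each replicate. A crossed pairing was added after the data were seen.

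The members and the lists were chosen with earlier results of these data known. The rule for test values was every member for WT footprints over time, and otherwise the 4 cytosolic and 4 mitochondrial genes of smallest p plus GRS1 and GRS2. Of the comparisons with none called, the lowest and highest of these are given, and GRS1 and GRS2 for the average. Other genes and further values, such as those of MES1 and KRS1, were picked after they were seen. Tables and plots used Python 3.11.15 with pandas 2.3.3 and matplotlib 3.10.9.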

Additional observations from a re-analysis of the deposited data

Results flagged for a closer look

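TYS1, YHR020W and FRS2 stood high in the mRNA library labelled deletion 3 h replicate 2, which entered none of the main comparisons. Each was at over 2 times the higher of the WT libraries at 3 h. The median cytosolic gene and the mitochondrial sum were lower in it, but the cytosolic sum was not. That sum was 2258 RPKM, against 2004 and 2149.5 RPKM in WT at 3 h. The cytosolic median was 47.4 RPKM, against 91.6 and 97.7 RPKM in WT at 3 h, and the mitochondrial sum 139 RPKM, against 508 and 558 RPKM. TYS1 had 897 RPKM in it, against 142 and 136 RPKM in WT at 3 h, and the deletion libraries at 6 h had 802 and 640.3 RPKM. YHR020W had 276 RPKM in it, against 32.4 and 37.1 RPKM in WT at 3 h, and 241 and 269 RPKM in the deletion at 6 h. FRS2 had 194 RPKM in it, against 47.6 and 46.7 RPKM in WT at 3 h, and 161 and 172 RPKM in the deletion at 6 h. The other deletion mRNA library at 3 h had 147 RPKM of TYS1, 46.0 RPKM of YHR020W and 54.6 RPKM of FRS2.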

How the results depend on the processing

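With libraries rescaled by the median ratio, counts in WT moved to 7 cytosolic genes lower, 3 mitochondrial higher and 4 lower in footprints, 7 cytosolic higher, 9 lower and 2 mitochondrial higher in mRNA, and 1 cytosolic and 0 mitochondrial higher in efficiency. In the deletion they moved to 7 cytosolic lower, 2 mitochondrial higher and 5 lower in footprints, 7 cytosolic higher, 8 lower and 9 mitochondrial lower in mRNA, and 1 cytosolic higher, 1 lower and 0 mitochondrial higher in efficiency. WT footprint changes that turned positive were DPS1 0.45, CDC60 0.76, THS1 0.027, ISM1 0.21, MSR1 0.28, MSW1 0.60 and MSY1 0.012. Rescaling sets the median gene near 0 by construction.

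With the mRNA library labelled deletion 3 h replicate 2 kept, WT efficiency had 1 cytosolic gene higher, 0 lower and 0 mitochondrial higher, and the deletion over time had 0 cytosolic genes higher and 0 lower and 0 mitochondrial lower in mRNA, and 1 cytosolic and 0 mitochondrial higher in efficiency. Its own 6 h profile enters these fits. Directions turned for the deletion against WT at 3 h (GRS2 mRNA -0.50, MSY1 efficiency 0.66), averaged over the times (HTS1 mRNA -0.16, GRS1 mRNA -0.20, GRS2 mRNA -0.22, and efficiency of MSY1 0.17, GRS1 0.36 and GRS2 0.12), for the deletion's efficiency over time (MSF1 -0.25, MSE1 -0.23, GRS1 -0.12, GRS2 -0.027) and for the difference between the times (MST1 mRNA 0.60, MSD1 efficiency -0.76).

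Leaving out 1 replicate at a time, WT footprints had 0 to 1 mitochondrial genes higher, and WT efficiency 1 to 21 cytosolic genes higher, 0 to 1 lower and 0 to 9 mitochondrial higher. For the deletion over time the ranges were 0 to 1 mitochondrial higher in footprints, and 1 to 12 cytosolic higher, 0 to 1 lower and 0 to 6 mitochondrial higher in efficiency. Changes of sign were seen in the deletion against WT for GRS2 mRNA at 3 h (-0.013 to 0.17), GRS1 mRNA at 6 h (-0.017 to 0.82), GRS2 footprints averaged (-0.25 to 0.055) and the difference of GRS1 mRNA (-0.22 to 0.21). Without deletion replicate 4 no deletion mRNA library at 3 h remained, and those contrasts have no value.

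WT and deletion libraries share only replicate number 4, and same-numbered WT libraries did not deviate together (correlations from -0.339 to 0.0533), while those of the deletion did (0.237 between the times in footprints, 0.671 between footprints and mRNA at 6 h). As this did not hold for every pair, the numbers were not taken to pair the samples. With the number as a replicate block, 4 cytosolic genes were called higher in WT mRNA, as without it, and the mRNA difference of GRS1 turned to -0.22. Efficiency paired per sample number called 18 cytosolic genes higher in WT and 3 mitochondrial genes higher in the deletion over time. With the WT numbers crossed it called 20 cytosolic genes higher in WT, and 16 higher and 1 lower in the deletion. No filter on low values left 0 cytosolic genes lower in WT efficiency, and a pseudocount of 5 RPKM gave 10 mitochondrial genes higher in the deletion's efficiency. The cause of these moves was not tested. For the alternatives other than rescaling, the shares of all genes called are not given here. A general gain or loss of calls therefore cannot be told from one of the synthetase genes. Of the counts recomputed under an alternative, 448 stayed within 1.5 times and 48 moved. Of the values of single genes, 1061 kept their direction and call, 92 lost and 19 gained a call, and 26 turned direction. Footprints of MSM1, MSD1 and DIA4 at 6 h rest on 15 to 34 reads per library and those of MES1 at 3 h on 45 to 76, so their counting error is large.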
